A study of Sus scrofa with 13 samples.

Results

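A set of 9 genes of the extracellular matrix was followed across genotype and age in pig skeletal muscle: POSTN, THBS1, VCAN, FN1, LOX, ASPN, KERA, FMOD and LRRC17. They were taken by name, with earlier results of these data known. All 9 were found among the 10283 named genes of the array, each with 1 probe set. Biceps femoris muscle of German Landrace pigs was profiled on whole-transcript arrays in 4 groups. At 2 days of age 4 DMD KO and 3 WT animals were sampled, and at 3 months of age 3 DMD KO and 3 WT animals. The knockout animals lacked exon 52 of the dystrophin gene, DMD. Dystrophin is the link between the inner scaffold of muscle fibres and the surrounding matrix. The deletion was built in a porcine bacterial artificial chromosome, and the animals came from nuclear transfer out of modified primary kidney cells. Knockout muscle was sampled at necropsy directly after the animals had died, whereas WT animals of matching age were euthanised. Genotype, nuclear transfer and manner of death therefore cannot be told apart in any genotype difference below. Each age was sampled in different animals, so in DMD KO age cannot be told apart from survival to 3 months. The number of donor cell clones was not given in the sources used here.

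Values are given as deposited and were read as log2 levels, so a difference of 1 stands for a factor of 2 if that reading holds. Array medians ran from 7.32 to 7.38. Their 95th percentiles spread further, from 9.21 on WT replicate 3 at 2 days, the array least like the others (mean Pearson r of 0.918 with the other 12 across probe sets, against up to 0.964), to 9.83. The brighter of 2 probe sets for DMD read 12.08 to 12.30 in DMD KO and 11.53 to 12.38 in WT at 2 days, and 11.53 to 11.84 in DMD KO and 11.81 to 12.01 in WT at 3 months. Neither DMD probe set was called by genotype at either age in the fit described below (adjusted p between 0.423 and 0.996). Where they lie relative to exon 52 was not stated, so they do not check the labels. The 4 measured muscle fibre markers of 10 listed (ACTA1, MYH1, MYH7 and CASQ1) had a mean level of 11.56 to 12.41 on every array, near the top of the range.

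Matricellular proteins are secreted into the matrix but serve mainly as signals to cells through integrins and other receptors rather than as load-bearing fibres. Small leucine-rich proteoglycans bind collagen molecules and set the spacing and diameter of collagen fibrils, and several of them bind TGF-beta. In muscle these proteins come largely from fibroblasts and related connective tissue cells between the fibres, and in chronic muscular dystrophy that connective tissue expands. Of the 9 genes, POSTN and THBS1 encode matricellular proteins in the strict sense, and ASPN, KERA and FMOD encode small leucine-rich proteoglycans. VCAN encodes a large proteoglycan, FN1 an adhesive glycoprotein, LOX a crosslinking enzyme and LRRC17 a secreted protein with leucine-rich repeats. Since muscle was measured in bulk, fewer cells of a type and less RNA per cell cannot be told apart.

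Of the 9 genes 8 were lower in DMD KO than in WT muscle at 2 days, and 7 were higher in DMD KO at 3 months. POSTN, VCAN, FN1, LOX, ASPN and LRRC17 passed the test in opposite directions at the 2 ages. THBS1 was higher in DMD KO at both. KERA and FMOD were lower in DMD KO at 2 days, and at 3 months their positive differences did not pass the test. Tests were limma fits over all 21893 probe sets and 4 groups with Benjamini-Hochberg adjustment, and calls were made below an adjusted p of 0.05. At 2 days 9.93% of all probe sets were called, 2.85% as lower and 7.09% as higher in DMD KO. At 3 months 5.98% were called, 1.36% as lower and 4.62% as higher.

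**Figure D1:**
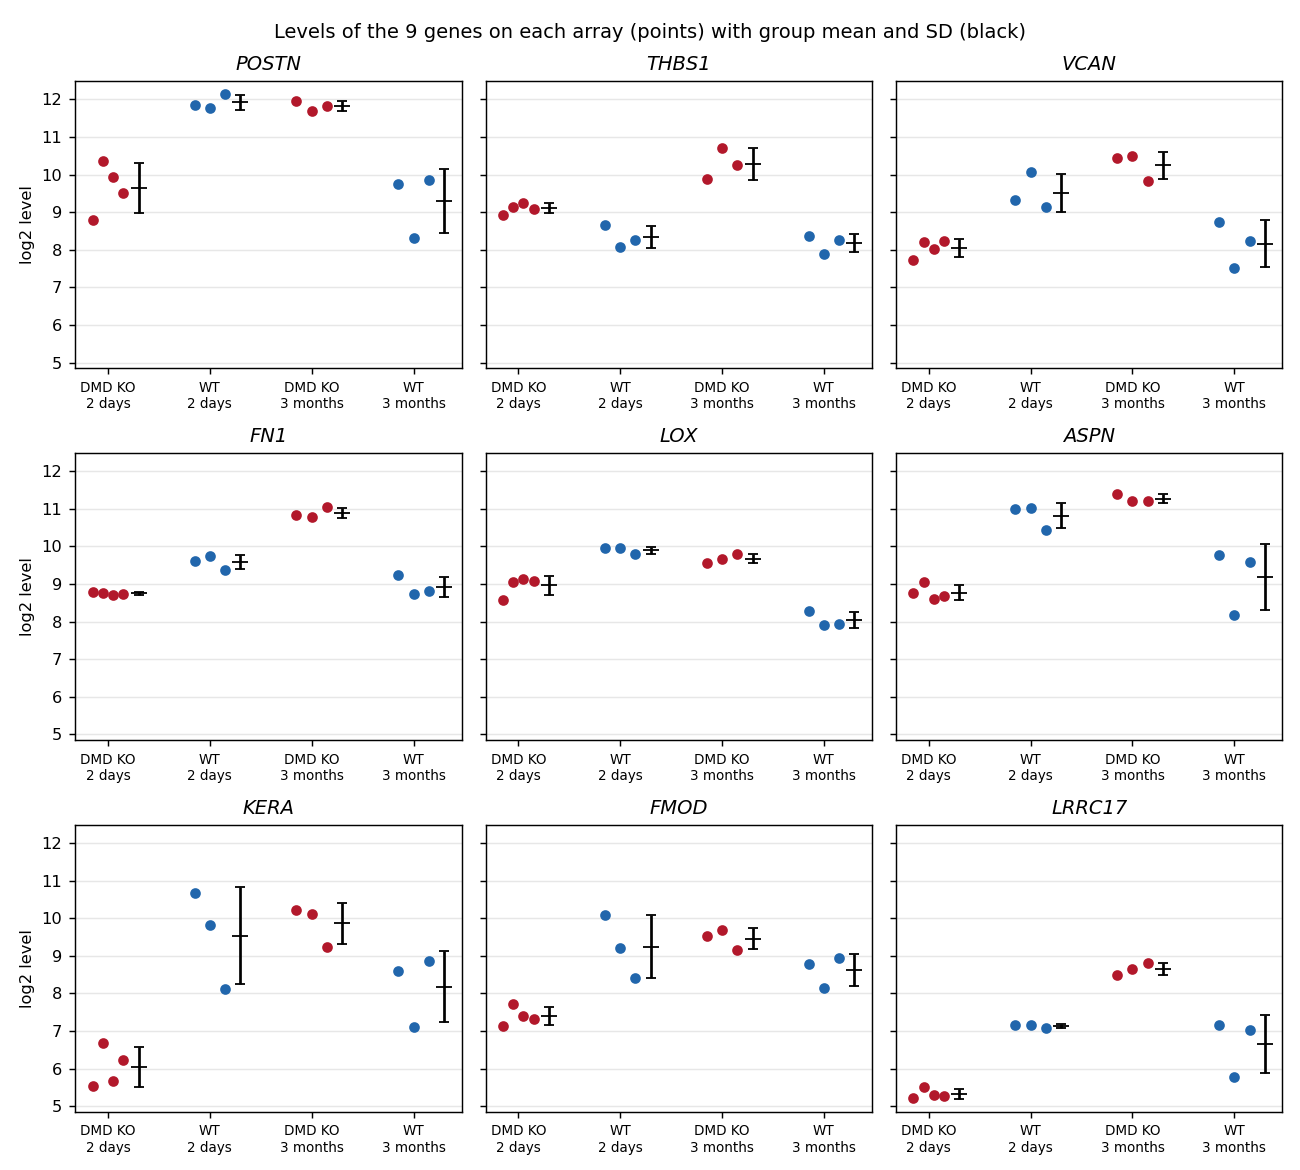
Log2 level (vertical axis) of each of the 9 genes on the 13 arrays, with a panel for each gene. Points are animals and black bars are group means with their SD, with DMD KO left of WT at each age. At 2 days the DMD KO points lie below the WT points in every panel but that of THBS1, and at 3 months they lie above them in all 9.

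POSTN encodes periostin, a matricellular protein of fibroblasts that binds integrins and collagen and takes part in collagen crosslinking. The newborn levels were 8.80, 10.35, 9.95 and 9.52 in the 4 DMD KO muscles, against 11.85, 11.76 and 12.14 in the 3 WT muscles. Older muscles read 11.95, 11.69 and 11.82 in DMD KO, against 9.74, 8.31 and 9.85 in WT. The groups did not overlap at either age, and the high pair was WT at 2 days and DMD KO at 3 months. The log2 difference, DMD KO minus WT, was -2.27 ± 0.37 (SE, limma adjusted p = 0.00332) at 2 days, which is 4.81-fold lower. In older animals it was 2.52 ± 0.40 (SE, limma adjusted p = 0.00244), which is 5.74-fold higher. The levels of DMD KO at 3 months (11.82 ± 0.13, SD, n = 3) and WT at 2 days (11.92 ± 0.20, SD, n = 3) differed by -0.10, with a 95% interval of -0.97 to 0.77. With age POSTN rose by 2.17 in DMD KO and fell by 2.62 in WT on the log2 scale, both past the test (limma adjusted p = 0.00291 and 0.0043). Fitting only the WT arrays ended the second call at the same difference (limma adjusted p = 0.0886).

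FN1 encodes fibronectin, the adhesive glycoprotein on which cells first settle and on which collagen is assembled. It was the most even of the 9 genes within groups, with a pooled SD of 0.17, equal to the median over all probe sets. Newborn muscles read 8.79, 8.77, 8.72 and 8.74 in DMD KO, against 9.61, 9.75 and 9.38 in WT. The levels at 3 months were 10.84, 10.77 and 11.05 in DMD KO, against 9.23, 8.75 and 8.81 in WT. Every DMD KO value lay below every WT value at 2 days and above every WT value at 3 months. The difference was -0.83 ± 0.13 (SE, limma adjusted p = 0.00219) at 2 days, 1.77-fold lower in DMD KO. It was 1.96 ± 0.13 (SE, limma adjusted p = 7.75e-06) at 3 months, 3.88-fold higher in DMD KO. In the order of levels DMD KO at 3 months stood first, 1.31 above WT at 2 days (95% interval 1.01 to 1.60, limma adjusted p = 0.000164). DMD KO at 2 days (8.75 ± 0.03, SD, n = 4) and WT at 3 months (8.93 ± 0.26, SD, n = 3) came last and differed by -0.18, with a 95% interval of -0.45 to 0.10.

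VCAN encodes versican, a large chondroitin sulfate proteoglycan that binds hyaluronan and fills the provisional matrix of growing or injured tissue. Its level at 2 days was 7.72, 8.20, 8.03 and 8.23 in DMD KO, against 9.31, 10.08 and 9.15 in WT. At the age of 3 months it was 10.43, 10.49 and 9.84 in DMD KO, against 8.75, 7.51 and 8.24 in WT. The groups were again apart at both ages. The difference was -1.47 ± 0.29 (SE, limma adjusted p = 0.00837) at 2 days, 2.77-fold lower in DMD KO. The 3-month difference was 2.09 ± 0.31 (SE, limma adjusted p = 0.00152), 4.25-fold higher in DMD KO. With age VCAN rose by 2.21 in DMD KO muscle (limma adjusted p = 0.000449). The difference of -1.35 with age in WT passed the test (limma adjusted p = 0.0361), but leaving out any 1 of 9 of the 13 arrays ended that call, with adjusted p between 0.0507 and 0.116. Those arrays were DMD KO replicates 2, 3 and 4 and WT replicates 1 and 2 at 2 days, and DMD KO replicates 1 and 2 and WT replicates 2 and 3 at 3 months.

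THBS1 encodes thrombospondin-1, a matricellular protein that binds CD47 and CD36 and can activate latent TGF-beta. In newborn muscle its level was 8.93, 9.15, 9.26 and 9.10 in DMD KO, against 8.66, 8.07 and 8.27 in WT. Older muscles read 9.88, 10.72 and 10.25 in DMD KO, against 8.36, 7.90 and 8.27 in WT. THBS1 was the one gene of the 9 that was high in DMD KO at both ages, and its 2 WT groups overlapped. The difference was 0.77 ± 0.19 (SE, limma adjusted p = 0.0267) at 2 days, 1.71-fold higher in DMD KO. That call ended on leaving out any 1 of DMD KO replicates 2, 3 or 4 or WT replicates 2 or 3 at 2 days, with adjusted p between 0.0611 and 0.0811 and differences of 0.64 to 0.78, and under quantile normalization (0.64, limma adjusted p = 0.0653). The difference at 3 months was 2.10 ± 0.21 (SE, limma adjusted p = 8.67e-05), 4.29-fold higher in DMD KO. The difference at 3 months exceeded that at 2 days by 1.33 ± 0.28 (SE, limma interaction, adjusted p = 0.017). In WT the age difference was -0.16 ± 0.21 (SE), with a 95% interval of -0.60 to 0.29. Platelets carry much thrombospondin-1. The single measured platelet marker of 6 listed, PPBP, was not called at either age. It read 6.21 to 6.38 in DMD KO and 6.38 to 6.45 in WT at 2 days, and 6.18 to 6.26 in DMD KO and 6.31 to 6.75 in WT at 3 months. These levels lay near or below the arrays' 25th percentiles of 6.54 to 6.61, in the dim range, and the part of platelets in the THBS1 differences was not tested.

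LOX encodes lysyl oxidase, which oxidises lysines of collagen and elastin and so starts their crosslinking. The newborn levels were 8.58, 9.05, 9.13 and 9.09 in DMD KO, against 9.95, 9.96 and 9.79 in WT. The levels at 3 months were 9.55, 9.67 and 9.80 in DMD KO, against 8.28, 7.90 and 7.94 in WT. DMD KO replicate 1 at 2 days lay apart below the rest of its group. The difference was -0.93 ± 0.14 (SE, limma adjusted p = 0.00208) at 2 days, 1.91-fold lower in DMD KO. It was 1.63 ± 0.15 (SE, limma adjusted p = 5.5e-05) at 3 months, 3.10-fold higher in DMD KO. With age LOX rose by 0.71 in DMD KO (limma adjusted p = 0.00714) and fell by 1.86 in WT (limma adjusted p = 5.97e-05). LOX was thus lowest of the 4 groups in WT muscle at 3 months. Against the next group up, the difference, DMD KO at 2 days minus WT at 3 months, was 0.92 ± 0.14 (SE, limma adjusted p = 0.00136).

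ASPN encodes asporin, a small leucine-rich proteoglycan with a run of aspartates that binds collagen and TGF-beta. Newborn muscles read 8.76, 9.04, 8.59 and 8.69 in DMD KO, against 10.99, 11.03 and 10.43 in WT. At the age of 3 months it was 11.40, 11.20 and 11.21 in DMD KO, against 9.78, 8.18 and 9.60 in WT. The DMD KO groups were tight and far from WT at both ages, while WT replicate 2 at 3 months lay below the other 2 of its group. The difference was -2.05 ± 0.30 (SE, limma adjusted p = 0.00187) at 2 days, 4.13-fold lower in DMD KO. It was 2.09 ± 0.33 (SE, limma adjusted p = 0.00214) at 3 months, 4.24-fold higher in DMD KO, and 1.58 without WT replicate 2 at 3 months (limma adjusted p = 0.000838). With age ASPN rose by 2.50 in DMD KO (limma adjusted p = 0.000256) and fell by 1.63 in WT (limma adjusted p = 0.019). The call in WT ended without WT replicate 1 or 2 at 2 days, with adjusted p of 0.0589 and 0.0555.

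KERA encodes keratocan, a keratan sulfate proteoglycan best known from the cornea and also made in tendon. Its level at 2 days was 5.55, 6.69, 5.67 and 6.24 in DMD KO, against 10.66, 9.82 and 8.13 in WT. Older muscles read 10.23, 10.11 and 9.25 in DMD KO, against 8.60, 7.10 and 8.85 in WT. The newborn DMD KO muscles were low throughout, and their mean stood at the 17th percentile of the probe sets of an array, so no fold is given at that age. The log2 difference at 2 days was -3.50 ± 0.56 (SE, limma adjusted p = 0.00264), with the DMD KO mean in the dim range of the arrays, where the size of a difference is uncertain. It was -2.94 without WT replicate 1 and -4.20 without WT replicate 3 at 2 days. At 3 months the groups did not overlap, but the difference of 1.68 ± 0.60 (SE, limma adjusted p = 0.137) did not pass, with a 95% interval of 0.39 to 2.97. Without WT replicate 3 at 2 days, the low array of its group for KERA, the same difference of 1.68 passed (limma adjusted p = 0.0384), and without WT replicate 2 at 3 months it was 1.14 (limma adjusted p = 0.453). KERA varied more within groups than the other 8 genes, with a pooled SD of 0.85.

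FMOD encodes fibromodulin, which binds collagen and acts early in fibril assembly, above all in tendon. In newborn muscle its level was 7.14, 7.72, 7.41 and 7.33 in DMD KO, against 10.09, 9.22 and 8.42 in WT. The levels at 3 months were 9.54, 9.69 and 9.15 in DMD KO, against 8.79, 8.14 and 8.94 in WT. FMOD thus stood apart by genotype at 2 days and only narrowly at 3 months, where the gap between the groups was 0.21. The difference was -1.84 ± 0.32 (SE, limma adjusted p = 0.00456) at 2 days, 3.59-fold lower in DMD KO. The 3-month difference was 0.84 ± 0.34 (SE, limma adjusted p = 0.204), with a 95% interval of 0.09 to 1.58. With age FMOD rose by 2.06 in DMD KO (limma adjusted p = 0.00141), and the difference of -0.62 in WT did not pass (limma adjusted p = 0.533).

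LRRC17 encodes a secreted protein with leucine-rich repeats that in mouse restrains the formation of osteoclasts. The newborn levels were 5.23, 5.52, 5.31 and 5.27 in DMD KO, against 7.15, 7.17 and 7.09 in WT. At the age of 3 months it was 8.48, 8.65 and 8.82 in DMD KO, against 7.17, 5.77 and 7.04 in WT. It was the dimmest of the 9 genes in newborn DMD KO muscle, at a mean percentile of 8.57, so no fold is given at that age. The difference was -1.80 ± 0.26 (SE, limma adjusted p = 0.0015) at 2 days. In older animals it was 1.99 ± 0.27 (SE, limma adjusted p = 0.000888), 3.98-fold higher in DMD KO. In DMD KO it rose with age (3.32 on the log2 scale, limma adjusted p = 1.25e-05). In WT the age difference of -0.48 did not pass (limma adjusted p = 0.561), and without WT replicate 2 at 3 months it was -0.03.

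**Figure D2:**
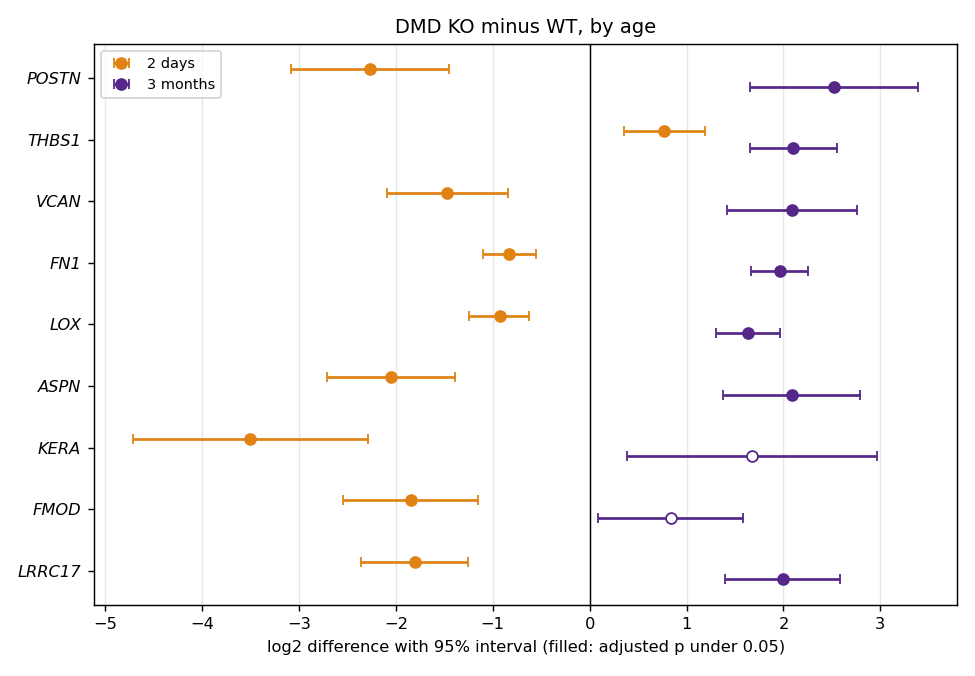
Log2 difference, DMD KO minus WT, of the 9 genes at 2 days and at 3 months, with 95% intervals from limma. Filled points passed at an adjusted p under 0.05. At 2 days 8 of 9 points lie left of 0, and at 3 months all 9 lie right of it, with KERA and FMOD open.

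At 2 days all 9 genes were called, 8 lower and 1 higher in DMD KO, and at 3 months 7 were called, all higher. The median difference over the 9 was -1.80 at 2 days and 1.99 at 3 months, beside -0.02 and -0.03 over all named genes. The values of the groups did not overlap for any of the 9 genes at either age. Among all probe sets 24.6% had no overlap at 2 days, 14.1% with DMD KO higher and 10.5% with DMD KO lower, and 23% at 3 months, 12.9% with DMD KO higher. Being called lower at 2 days and higher at 3 months was a pattern of 68 of the 10283 named genes (0.661%), and 6 of these 68 were among the 9. Since the 9 genes were chosen with earlier results of these data known, these shares and medians are no test of the set. WT replicate 3 at 2 days was the lowest of its group for 7 of the 9 genes. Without it 8 genes were called at 2 days, THBS1 being lost (0.74, limma adjusted p = 0.0811), and 8 at 3 months, KERA being gained. WT replicate 2 at 3 months was the lowest of its group for all 9. Without it the same number of 7 genes was called at 3 months, with smaller differences, from 0.60 for FMOD to 2.03 for POSTN.

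The change of the genotype difference between the ages, 3 months minus 2 days, was positive and called for all 9 genes. Over all probe sets 5.05% were called in this interaction, 3.06% as higher and 1.99% as lower. It was 5.18 ± 0.82 (SE, limma adjusted p = 0.00309) for KERA, 4.79 ± 0.55 (SE, limma adjusted p = 0.000382) for POSTN and 4.13 ± 0.45 (SE, limma adjusted p = 0.000264) for ASPN. These 3 encode 1 matricellular protein and 2 proteoglycans. The value of KERA, which includes its dim newborn DMD KO group, ran from 4.61 to 5.88 on leaving out single arrays. LRRC17 followed with 3.79, VCAN with 3.55, FN1 with 2.78, FMOD with 2.68 and LOX with 2.57, and THBS1 had the smallest, 1.33. The value of LRRC17 also includes a dim newborn DMD KO group, so its size is uncertain. The median over the 9 genes was 3.55, beside 0 over all named genes. The interaction and the single differences share the same samples, so they are not separate evidence.

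Seen by age within a genotype, and in different animals, all 9 genes were higher in DMD KO muscle at 3 months than at 2 days. For 7 of them the rise was 0.71 (LOX) to 2.50 (ASPN) on the log2 scale. For KERA and LRRC17 the fitted rises of 3.82 and 3.32 were taken against a newborn group in the dim range, so their size is uncertain. In DMD KO 8.04% of all probe sets were called with age, 4.47% as higher and 3.57% as lower. The 2 ages did not overlap in DMD KO for any of the 9 genes, as for 10.1% of all probe sets with the older group higher. In WT 5 of the 9 fell with age, namely POSTN, LOX, ASPN, VCAN and FN1, by 0.65 (FN1) to 2.62 (POSTN). KERA (-1.35), FMOD (-0.62), LRRC17 (-0.48) and THBS1 (-0.16) did not pass there. In WT 2.89% of all probe sets were called, 1.71% as higher and 1.18% as lower. The 5 called genes were also those whose WT ages did not overlap, beside 6.32% of all probe sets with the older group lower. The count of 5 in WT moved with single arrays, to 2 without WT replicate 1 or 2 at 2 days, to 3 without WT replicate 2 or 3 at 3 months and to 6 without WT replicate 3 at 2 days. It was 1, that of LOX (limma adjusted p = 0.0133), when only the WT arrays were fitted. For FN1 the WT call ended without WT replicate 1 or 2 at 2 days or WT replicate 2 or 3 at 3 months, with adjusted p between 0.063 and 0.0938.

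**Figure D3:**
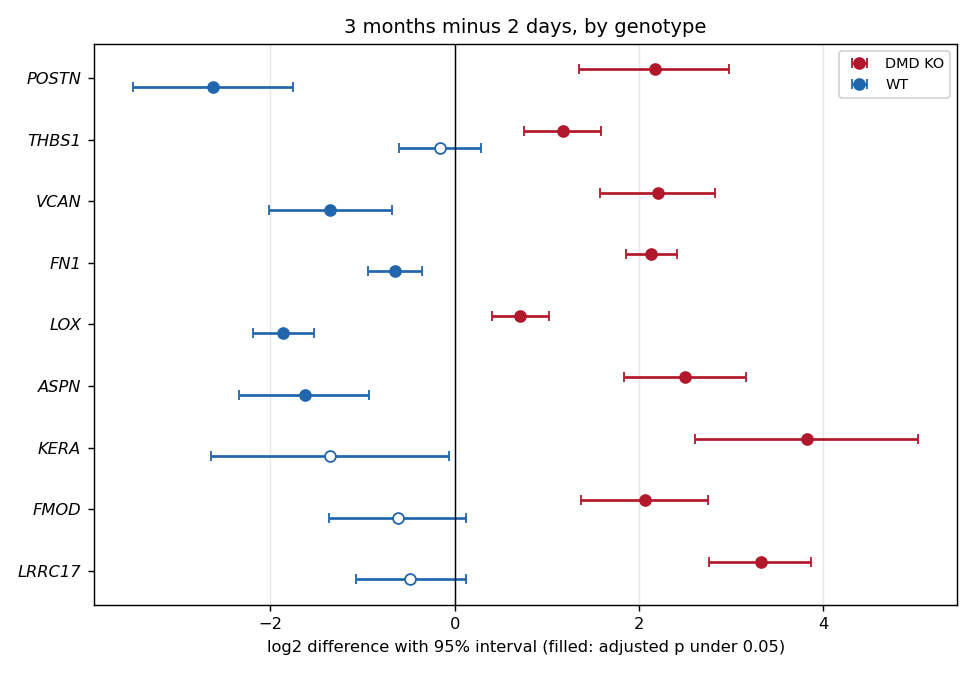
Log2 difference, 3 months minus 2 days, of the 9 genes in DMD KO and in WT, with 95% intervals from limma. Filled points passed at an adjusted p under 0.05. All 9 DMD KO points lie right of 0 and all 9 WT points left of it, with 4 of the WT points open.

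The genotypes were also set across the ages, a comparison chosen after the values were seen. DMD KO at 3 months was higher than WT at 2 days for THBS1 (1.94), FN1 (1.31) and LRRC17 (1.51), and the other 6 genes were not called (4.71% of all probe sets were, 3.84% as higher and 0.868% as lower). For POSTN, VCAN, LOX, ASPN, KERA and FMOD the 95% intervals of that difference reached from -0.97 at the lowest to 1.62 at the highest. The interval of VCAN, 0.07 to 1.41 around 0.74, lay above 0 though it was not called (limma adjusted p = 0.192). Those of the others included 0. DMD KO at 2 days was higher than WT at 3 months for THBS1 (0.93) and LOX (0.92) and lower for KERA (-2.14), FMOD (-1.22) and LRRC17 (-1.33), with 9.64% of all probe sets called, 7.17% as higher and 2.48% as lower. KERA, FMOD and LRRC17 therefore had their lowest level of the 4 groups in newborn DMD KO muscle. POSTN, VCAN, FN1 and ASPN did not differ past the test between DMD KO at 2 days and WT at 3 months, the pair of groups in which they were low.

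**Figure D4:**
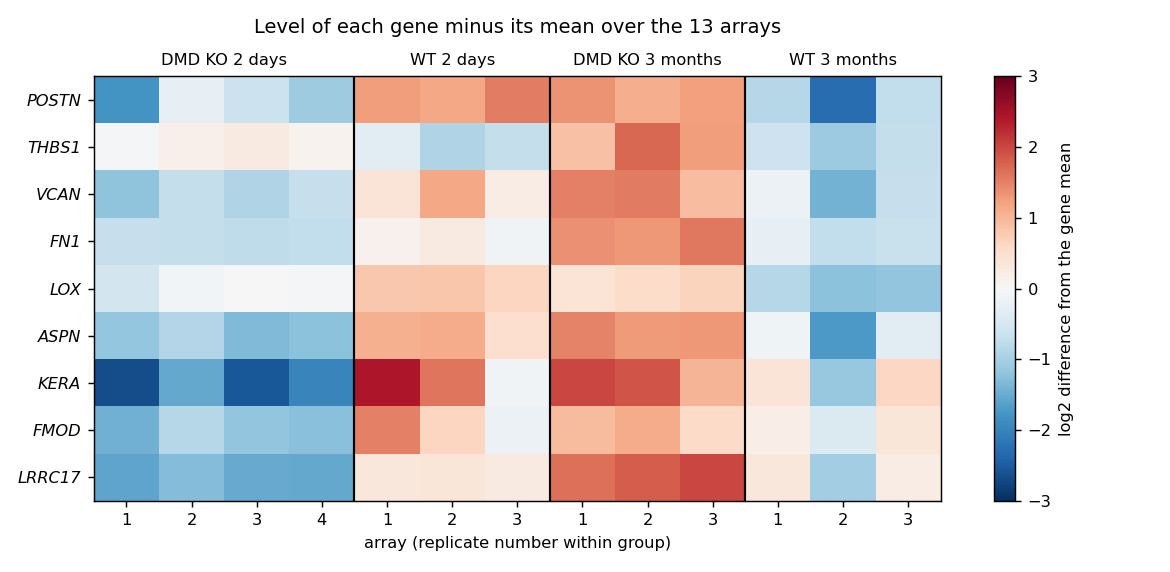
Log2 level of the 9 genes (rows) on the 13 arrays (columns, DMD KO left of WT at each age), each gene centred on its own mean over the arrays. Blue is below and red above the mean of the gene. KERA shows the widest range, and WT replicate 2 at 3 months is the low array of its group in every row.

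The likeness of 2 genes was measured as the root-mean-square difference of their log2 levels over the 13 arrays, after each was centred on its own mean. ASPN and VCAN were nearest to each other (0.34), and POSTN was nearest to ASPN (0.51). For FN1 the nearest gene was CDH11 at 0.13, a cadherin of mesenchymal cells, followed by SFRP2 at 0.22, a secreted inhibitor of WNT signalling, and CTHRC1 at 0.25, a secreted collagen triple helix protein. The root-mean-square of FN1 about its own mean was 0.84, so these 3 followed it closely. LOX was nearest to PCDH7 and MFAP5 (both 0.31), the second a microfibril protein, and VCAN had CDH11 (0.37) after ASPN. FMOD was nearest to ABI3BP (0.26), CHODL (0.29) and MMP16 (0.37), and LRRC17 to C1QTNF3 (0.41) and CCDC80 (0.51). THBS1 was nearest to NFKBIZ (0.30), UGCG (0.32) and LGALS3 (0.34), none of which was among the 3 nearest of another of the 9. The same held for the 3 nearest of LOX and for those of FMOD. KERA had no close match, with FMOD first at 0.82 beside its own 1.73. THBS1 and KERA were the least alike of the 9, at 1.77.

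Several of these genes sit in clusters of proteoglycan genes, and their neighbours were read from the gene order of the RefSeq annotation of Sscrofa11.1. KERA lies between LUM, with DCN beyond it, and EPYC. LUM encodes lumican and DCN decorin, both collagen-binding proteoglycans. LUM was lower in DMD KO at 2 days by 1.14 and DCN by 0.95 in size (limma adjusted p = 0.002 and 0.000988), while EPYC was dim on every array and not called. FMOD lies between BTG2 and PRELP, with OPTC beyond PRELP. Neither PRELP nor OPTC was called at either age (PRELP -0.13 and -0.02, OPTC 0.00 and -0.19 at 2 days and 3 months). ASPN lies next to OMD, which was not called either (0.08 and 0.31). VCAN lies next to HAPLN1, the gene of a link protein for hyaluronan, which was dim and not called (-0.23 and -0.11).

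The other small leucine-rich proteoglycans were led by LUM, DCN and BGN (biglycan). Of 14 listed 8 were measured, of which 4 were called lower and none higher in DMD KO at 2 days, and 3 higher and none lower at 3 months. Their median difference was -0.24 at 2 days and 0.16 at 3 months. BGN averaged 8.03 ± 0.15 in DMD KO (SD, n = 4) and 8.81 ± 0.12 in WT (SD, n = 3) at 2 days, a difference of -0.78 (limma adjusted p = 0.00183). At 3 months it averaged 9.08 ± 0.22 in DMD KO and 8.08 ± 0.07 in WT (SD, n = 3 each), a difference of 1.0 (limma adjusted p = 0.000434). LUM and DCN were higher in DMD KO at 3 months by 0.80 and 0.58 (limma adjusted p = 0.0212 and 0.0221). Each of these 2 calls ended without any 1 of the 3 DMD KO arrays or WT replicates 2 or 3 at 3 months, with adjusted p up to 0.0883 for LUM and 0.0981 for DCN. LUM, DCN and BGN were the 3 of 8 (37.5%) with the opposite calls at the 2 ages. The remaining gene called at 2 days was CHAD, chondroadherin (-0.34, limma adjusted p = 0.0334), whose call ended without any 1 of the 4 DMD KO arrays or WT replicate 1 or 3 at that age (adjusted p up to 0.131).

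Of 21 other matricellular genes listed 16 were measured. At 2 days 1 was called higher and 3 lower in DMD KO, with a median of -0.25, and at 3 months 5 were called higher and none lower, with a median of 0.16. SPP1, the gene of osteopontin, a cytokine-like matrix protein of macrophages and regenerating muscle, averaged 10.25 ± 0.18 in DMD KO (SD, n = 4) and 7.67 ± 0.35 in WT (SD, n = 3) at 2 days, a difference of 2.58 (limma adjusted p = 1.51e-05). At 3 months it averaged 11.03 ± 0.32 in DMD KO and 8.02 ± 0.10 in WT (SD, n = 3 each), a difference of 3.00 (limma adjusted p = 4.47e-06). SPP1 was high in DMD KO at both ages, as THBS1 was. SPARC, a collagen-binding matricellular protein, was lower in DMD KO at 2 days (-1.01, limma adjusted p = 0.000192) and higher at 3 months (0.81, limma adjusted p = 0.000542). TNC, tenascin-C, was not called at 2 days (-0.18) and was higher in DMD KO at 3 months (1.55, limma adjusted p = 0.000182). MGP, which holds back calcification, was higher in DMD KO at 3 months (1.72, limma adjusted p = 0.0111), a call that ended without WT replicate 3 at that age (limma adjusted p = 0.0513). CILP, a cartilage matrix protein, was also higher then (0.58, limma adjusted p = 0.00829). NOV and TGFBI were the remaining genes lower in DMD KO at 2 days (-0.88 and -0.43, limma adjusted p = 0.0286 and 0.0311). Neither call held on leaving out single arrays, while the differences stayed between -0.95 and -0.81 for NOV and between -0.53 and -0.34 for TGFBI. That of NOV ended without any 1 of the 4 DMD KO arrays or WT replicate 2 or 3 at that age, and that of TGFBI without DMD KO replicate 1, 2 or 4 or WT replicate 1 or 3, with adjusted p up to 0.0774 and 0.126.

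The collagens that the proteoglycans bind and LOX crosslinks were called in the same directions. Of 8 measured genes of 9 listed 7 were lower in DMD KO at 2 days and 5 higher at 3 months, with medians of -0.86 and 0.78. COL3A1, a fibrillar collagen of young and healing tissue, was lower by 1.32 in size at 2 days (limma adjusted p = 3.99e-05) and higher by 1.07 at 3 months (limma adjusted p = 0.000102). COL12A1, a collagen on the surface of fibrils, differed by -0.75 (limma adjusted p = 0.0474) and 1.92 (limma adjusted p = 0.000381). The call of COL12A1 at 2 days lay just under the threshold and was not refitted without single arrays. COL1A1, the main fibrillar collagen, differed by -2.06 at 2 days (limma adjusted p = 0.000179) and by 0.44 at 3 months, which did not pass (limma adjusted p = 0.238). Of 8 measured elastic fibre genes of 16 listed 2 were lower at 2 days and 3 higher at 3 months in DMD KO, with medians of -0.23 and 0.42. MFAP5, a microfibril protein, was higher by 1.13 at 3 months (limma adjusted p = 0.000668). Its difference of -0.65 at 2 days passed (limma adjusted p = 0.0129) but not without WT replicate 3 at that age (limma adjusted p = 0.0534). FBN1, the gene of fibrillin-1, differed by -0.68 at 2 days (limma adjusted p = 0.0132) and by 0.73 at 3 months (limma adjusted p = 0.0156), the second a call that ended without DMD KO replicate 1 or WT replicate 2 or 3 at 3 months (adjusted p 0.0606 to 0.0721). FBLN1, the gene of fibulin-1, was higher at 3 months (0.89, limma adjusted p = 0.00243).

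Relatives and partners of LOX and VCAN, and receptors, are given beside the 9.93% of all probe sets called at 2 days and the 5.98% called at 3 months. Of 14 measured genes of the lysyl oxidase family and of collagen crosslinking or processing, out of 21 listed, none was called at 2 days and 1 at 3 months, with medians of -0.15 and 0.01. That gene was PLOD2, a lysyl hydroxylase whose product shapes collagen crosslinks, higher in DMD KO by 1.87 ± 0.34 (SE, limma adjusted p = 0.0054). Of 13 measured genes of the versican and hyaluronan network, out of 22 listed, none was called at 2 days and 1 at 3 months, with medians of -0.17 and -0.10. It was CD44, a receptor for hyaluronan, higher in DMD KO by 1.15 ± 0.16 (SE, limma adjusted p = 0.00116). Of 16 measured receptors of the 9 gene products, out of 18 listed, 1 was called at 2 days and 2 at 3 months, all higher in DMD KO, with medians of -0.04 and 0.11. SDC4, a syndecan that binds fibronectin, was higher at 2 days (0.96, limma adjusted p = 0.00179). ITGA8, an integrin chain that binds fibronectin, was higher at 3 months (1.52, limma adjusted p = 0.00014). ITGAV, an integrin chain for periostin and fibronectin, was also higher then (1.02, limma adjusted p = 0.0299), but not without any 1 of the 3 DMD KO arrays or WT replicates 2 or 3 at 3 months (adjusted p 0.0667 to 0.129). Of 6 measured TGF-beta ligands and receptors, out of 10 listed, none was called at 2 days and 2 were called higher in DMD KO at 3 months, the receptor genes TGFBR1 (1.0) and TGFBR3 (0.61). Both calls ended without DMD KO replicate 3 or WT replicate 2 or 3 at 3 months, that of TGFBR1 also without DMD KO replicate 2, with adjusted p up to 0.144 and 0.0676. The medians of that list were 0.15 and 0.28.

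**Figure D5:**
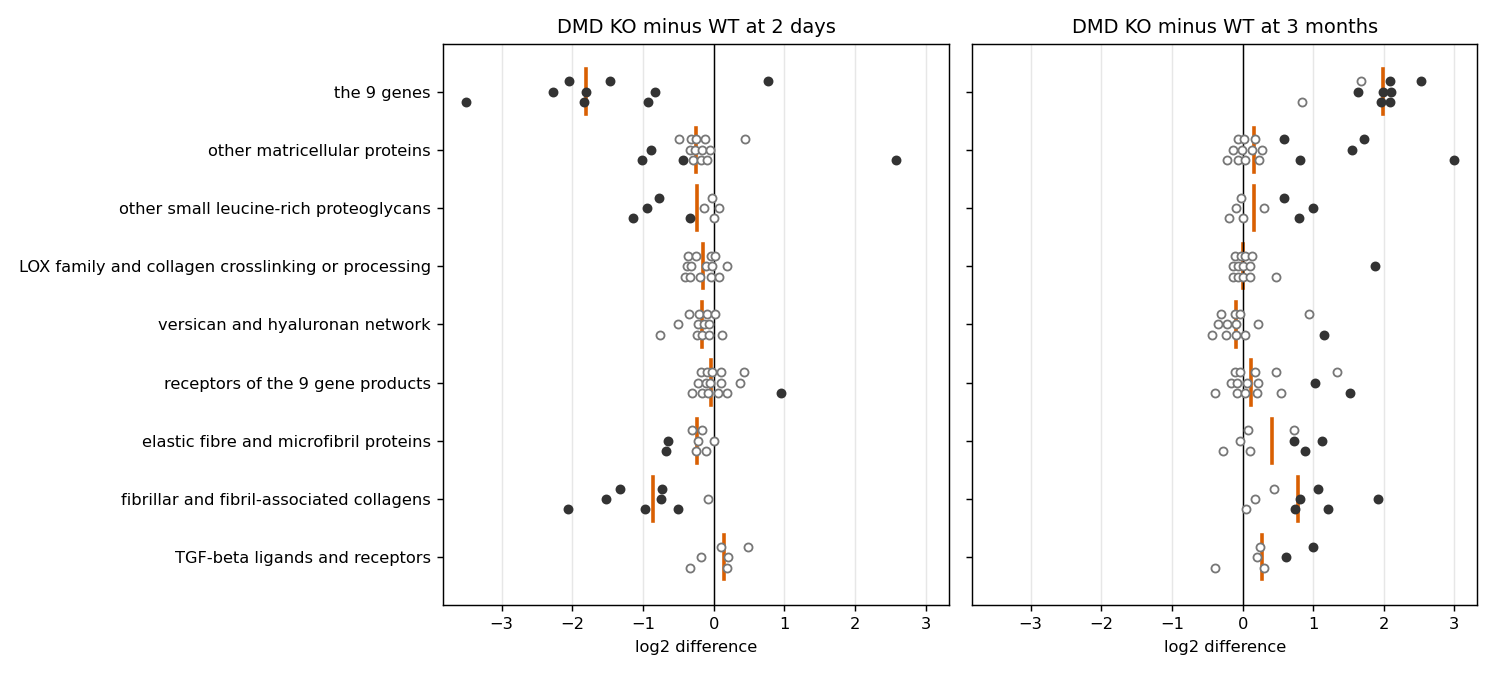
Log2 difference, DMD KO minus WT, at 2 days (left) and 3 months (right) for the 9 genes and 8 lists of related genes. Each point is a gene, filled where the adjusted p was under 0.05, and each orange bar is the median of its row. The 9 genes and the collagens lie mostly left of 0 at 2 days and right of it at 3 months, while most other rows centre near 0.

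Fibroblast markers that were called went the way of most of the 9 genes. Of 8 measured fibroblast markers of 9 listed 4 were lower in DMD KO at 2 days (THY1, LUM, DCN and MFAP5) and 3 higher at 3 months (LUM, DCN and MFAP5), with medians of -0.48 and 0.32. DCN, LUM and MFAP5 also stand in the lists above, where the limits of their calls are given. All 8 differences were negative at 2 days, while at 3 months 6 were positive and 2 negative. The negative ones, neither called, were those of CD34 (means of 7.351 in DMD KO and 7.745 in WT) and TCF21 (6.359 and 6.596). The mean level of the marker list was 8.27 to 8.52 in DMD KO and 8.81 to 9.07 in WT at 2 days, and 8.94 to 9.09 in DMD KO and 8.60 to 8.82 in WT at 3 months. Of 4 measured tendon markers of 8 listed none was called at either age. The mean of that list was 6.75 to 6.82 in DMD KO and 7.12 to 7.80 in WT at 2 days, and 6.82 to 7.37 in DMD KO and 7.02 to 7.38 in WT at 3 months. TNMD, which marks tendon, read 8.91, 6.60 and 6.08 in WT replicates 1, 2 and 3 at 2 days. KERA and FMOD were also highest in replicate 1 and lowest in replicate 3 of that group. The mean of the tendon list fell in the same order there (7.796, 7.135 and 7.122). In WT at 3 months the list mean read 7.022, 7.143 and 7.378 in replicates 1, 2 and 3. KERA and FMOD were likewise highest in replicate 3 of that group, but lowest in replicate 2. In DMD KO at 3 months the list mean read 7.366, 7.111 and 6.824. KERA followed that order, while FMOD was lowest in replicate 3 but highest in replicate 2. In DMD KO at 2 days the list mean was lowest in replicate 2, where KERA and FMOD were highest. Of 6 measured macrophage markers of 8 listed none was called at 2 days and 3 were higher in DMD KO at 3 months, MRC1 (2.28, limma adjusted p = 0.00144), C1QB (0.94) and AIF1 (0.72). Their mean level was 7.35 to 7.43 in DMD KO and 7.35 to 7.62 in WT at 2 days, and 7.82 to 8.19 in DMD KO and 7.17 to 7.46 in WT at 3 months. Of the 4 cartilage markers measured, of 6 listed, none was called at either age. Of the 4 measured muscle fibre markers 1 was higher in DMD KO at 2 days, MYH7 (1.67, limma adjusted p = 0.00816), the myosin heavy chain of slow fibres. MYH1, a myosin heavy chain of fast fibres, was lower then (-0.91, limma adjusted p = 0.00615), as was CASQ1 (-0.41, limma adjusted p = 0.0404), whose call ended without any 1 of 10 of the 13 arrays, all but DMD KO replicate 2 at 2 days and DMD KO replicate 3 and WT replicate 1 at 3 months (adjusted p up to 0.102). None of these 4 was called by genotype at 3 months. Of 4 measured endothelial markers of 6 listed 1 was higher in DMD KO at 2 days, TEK (0.65, limma adjusted p = 0.0461), whose call ended without any 1 of 9 arrays, all but WT replicate 2 at 2 days and DMD KO replicates 1 and 2 and WT replicate 1 at 3 months (adjusted p up to 0.179), and none was called at 3 months. The mean of that list was 8.57 to 8.75 in DMD KO and 8.20 to 8.70 in WT at 2 days, and 8.03 to 8.28 in DMD KO and 8.18 to 8.58 in WT at 3 months. Of 5 measured smooth muscle and pericyte markers of 6 listed none was called at 2 days and 1 was lower in DMD KO at 3 months, RGS5 (-0.74, limma adjusted p = 0.013). Their mean was 8.01 to 8.12 in DMD KO and 8.06 to 8.25 in WT at 2 days, and 7.68 to 8.11 in DMD KO and 8.12 to 8.28 in WT at 3 months. No marker on these arrays can be read as 0. The part that the share of fibroblasts, tendon, macrophages, fibre types or vessel cells had in the differences of the 9 genes was not tested.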

How the data were processed

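The authors deposited 1 table of 21893 probe sets by 13 arrays, whose values were read as log2 levels from their range and medians. Per the submitters' processing notes the arrays were handled with Affymetrix Power Tools. The version, summary method, normalization and annotation were not given in the sources used here. Deposited values were used unfiltered. Per the array annotation 11028 probe sets carried 1 symbol, 418 several and 10447 none. A gene was represented by its brightest probe set. RNA came from 1 animal per array, in biological replicates per the labels, and precision is limited by the number of animals.

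All probe sets went into 1 fit by limma 3.58.1 under R 4.3.3 (lmFit, eBayes) over the 4 groups (9 residual degrees of freedom), two-sided, with Benjamini-Hochberg adjustment over all probe sets and calls at an adjusted p under 0.05. SE is limma's moderated standard error. No fold is given where the lower group's mean lay below 6.61, the highest of the arrays' 25th percentiles. The fit was tested on simulated data. The 9 genes and the gene lists were chosen with earlier results of these data known. Of each list, up to 3 called genes with the largest rise and 3 with the largest fall per genotype contrast and interaction could be named, and per member the 3 most alike genes. The text gives part of them. Neighbouring genes, CHAD, CILP and the genes named from marker lists fall outside this rule and were chosen after their values were seen. Alternatives were array weights, fits on the compared groups only, a robust eBayes with a trend, median centring, quantile normalization, a filter on dim probe sets, a replicate block and each array left out.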

Additional observations from a re-analysis of the deposited data

Results flagged for a closer look

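The genotype difference was compared between the ages by limma's interaction test, and the values here are those of the 9 genes and of the called list genes taken by the naming rule with a positive change. For the 9 genes the change in log2 difference was 4.79 for POSTN, 1.33 for THBS1, 3.55 for VCAN, 2.78 for FN1, 2.57 for LOX, 4.13 for ASPN, 5.18 for KERA, 2.68 for FMOD and 3.79 for LRRC17. Among the collagens it was 2.67 for COL12A1, 2.50 for COL1A1 and 2.39 for COL3A1. The proteoglycans LUM, BGN and DCN had 1.94, 1.78 and 1.52. The matricellular genes MGP, SPARC and TNC had 2.20, 1.82 and 1.73, and the elastic fibre genes MFAP5, FBN1 and FBLN1 had 1.78, 1.41 and 1.11. The collagen hydroxylase PLOD2 had 1.79, the integrin chain ITGA8 had 1.42 and the hyaluronan receptor CD44 had 1.03. The calls of PLOD2 and CD44 did not hold on leaving out single arrays. For PLOD2, leaving out any 1 of 11 of the 13 arrays (all but WT replicate 3 at 2 days and WT replicate 1 at 3 months) gave adjusted p of 0.0622 to 0.105. For CD44, leaving out WT replicate 2 or 3 at 3 months gave 0.0515 and 0.0529.

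In 3 of 38 genes examined, 1 of the 4 DMD KO animals at 2 days stood far from the other 3. For LOX replicate 1 was the low one at 8.58, with a gap of 0.851 of the group's range. For HMMR, a hyaluronan receptor, replicate 1 was the high one at 7.09, with a gap of 0.859. For ITGA8 replicate 3 was the low one at 6.73, with a gap of 0.957. Chance flags about 1 in 20 groups, and the other groups, with 3 animals each, could not be examined in this way.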

How the results depend on the processing

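Each of the 9 genes was refitted under up to 7 other settings and without each of the 13 arrays, 179 values per comparison. Direction and side of the threshold held for 172 of 179 at 2 days, 176 at 3 months, 178 for the interaction, 179 for age in DMD KO and 153 for age in WT. All 7 losses at 2 days were of THBS1, 1 of them under quantile normalization (0.64, limma adjusted p = 0.0653). With array weights, whose estimation stopped before full convergence, KERA and FMOD were called at 3 months (adjusted p = 0.0255 and 0.0456). The one reversed value was the age difference of THBS1 in WT, 0.01 without WT replicate 1 at 2 days and not called either way, in a leave-one-out range of -0.29 to 0.01. In WT with age, 1 of the 9 genes was called when only the WT arrays were fitted, and 2 with a replicate block. Leaving out 1 array gave 8 to 9 genes at 2 days, 7 to 8 at 3 months, 9 to 9 for the interaction and for age in DMD KO, and 2 to 6 for age in WT. The filter on dim probe sets left LRRC17 untested, and averaging probe sets of a gene gave no separate value, since each of the 9 has 1.

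Over all probe sets array weights gave 5438 calls at 2 days, 3412 at 3 months, 2760 for the interaction, 3743 for age in DMD KO and 2562 for age in WT, against 2175, 1310, 1105, 1760 and 633 as reported. Array weights also moved the share of calls that were higher to 58.2% from the reported 71.4% at 2 days, and to 39% from the reported 59.2% for age in WT. Fitting only the groups compared gave 1275 at 2 days and 40 for age in WT, of which 77.5% were higher. Without 1 array the counts ran from 1143 to 3210 at 2 days, 702 to 2036 at 3 months, 789 to 1265 for the interaction, 1180 to 2294 for age in DMD KO and 368 to 757 for age in WT. The arrays that moved a count over 1.5 times downwards were DMD KO replicates 2, 3 and 4 and WT replicate 3 at 2 days, and DMD KO replicate 3 and WT replicates 2 and 3 at 3 months. WT replicate 3 at 2 days raised the count at 3 months when left out. The causes of these shifts were not tested.

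Replicate numbers did not pair the animals: of 18 same-numbered pairs across groups 4 had deviations correlated above 0.1 (r from -0.495 to 0.33), and 4 of 13 arrays were most like an array of their own number. With the number as a replicate block the calls were 735 at 2 days, 829 at 3 months, 580 for the interaction, 1087 for age in DMD KO and 325 for age in WT. Of the 9 genes, THBS1 then missed the threshold at 2 days (0.78, adjusted p = 0.119) and in the interaction (1.32, adjusted p = 0.0836). Of 46 calls of named list genes 34 held without any 1 array. The newborn DMD KO group means of KERA and LRRC17 lay below the 25th percentile of the arrays, where an array resolves differences poorly.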
